A study of Homo sapiens with 32 samples.

Results

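Chemokine and interleukin genes were followed through the expression data of a human neuroblastoma line that carried full-length MYC or one of its deletion mutants. The genes were chosen by symbol: CCL or CXCL with a number, IL with a number and at most 1 letter from A to F, and in addition CX3CL1, LIF, CSF1, CSF2, CSF3 and TNF. This gave 82 of the 58317 genes in the authors' deposited table of all genes. The rule itself uses symbols and no measured value, but it was set with earlier results of these data known.

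RNA was sequenced from SH-EP/TET21/N (TET21) cells at passages 10-15, in 32 libraries of 8 groups with 4 libraries each. Controls carried an empty vector (EV), a second group expressed MYC of full length (WT), and the deletion mutants were d0x, d1, d2, d3a, d3b and, last, d4. The file headers call these mutants Mutant0, 1, 2, 3a, 3b and 4. Doxycycline was given to the cells at 1 µg/mL over the last 7 days, and the labels print the same protocol for every group, EV included. TET21 is known as a derivative of SH-EP with a MYCN transgene that is shut off by doxycycline. The labels name deletion mutants without describing the deleted segments; from general knowledge of MYC the numbers were taken to be those of its conserved boxes. They do not say how MYC was introduced, whether a line was 1 clone, or whether libraries of a group came from separate cultures, and the spread behind a call may then be technical.

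The values are those of the authors' deposited table: for each gene and comparison a log2 fold, with PPDE, the probability after fitting that the gene is differentially expressed, from 0 to 1. Called genes, the only ones said to rise or fall, have a PPDE of at least 0.95, which the file header equates with a false discovery rate below 0.05. Values per library were not used here, so folds have no SD, overlap between libraries cannot be stated, and the depth is unknown. All 6 mutant comparisons share the 4 WT libraries, which also enter WT against EV. The authors' deposited table put MYC itself at 0.98 (log2) between WT and EV, with a PPDE of 0.348, and was called in no comparison, so its transcript level gives no check of the labels. Of 16 markers of T, B and myeloid cells, 13 had a value in WT against EV and 0 were called in any comparison. Since 4.91% of all genes with a value were called in WT against EV, and at most 1.45% in a mutant, a count of 0 says little about so few markers. Some markers of the line's own state were called between WT and EV, where 2.94% of all genes fell and 1.97% rose. Of 8 mesenchymal markers 3 fell, FN1 (-2.51), SNAI2 (-1.35) and NOTCH2 (-0.51 in the authors' deposited table), and of 4 epithelial markers 3 fell, KRT5 (-5.10), KRT14 (-4.66) and CDH1 (-3.59). Of 7 adrenergic markers 6 had a value, and HAND2 alone was called, at 0.48 in the authors' deposited table. In d2 the authors' deposited table had FN1 rise (1.77) and SNAI2 rise (1.36). Their part in the results below was not tested.

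Chemokines are small secreted proteins that guide migrating leukocytes through receptors coupled to G proteins. Interleukins, colony-stimulating factors and TNF act on immune and stromal cells through other receptor families. Many of these genes are barely transcribed at rest and are switched on by NF-kB, AP-1 and C/EBP factors, and many of their mRNAs are short-lived because proteins such as ZFP36 bind AU-rich stretches and speed their decay. Tumour cells of mesenchymal type can secrete several of them, IL6 and CXCL8 among them.

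The neutrophil-attracting CXC genes lie together on chromosome 4, and their promoters are shown first because these genes are described together below. IL6, on chromosome 7, is shown beside them as the called interleukin that shares the motif. Each line is 35 bases on either side of the match to GGANTTTCC, an NF-kB type motif, which is in capitals. Sequences are RefSeq promoters on GRCh38.p14, whereas the files' build is GRCh37, and positions are counted from the RefSeq start. CXCL1 is at chr4:73869280-73869358 (+), CXCL2 at chr4:74099229-74099307 (-), CXCL3 at chr4:74038724-74038802 (-), CXCL5 at chr4:73998724-73998802 (-), CXCL6 at chr4:73836554-73836632 (+), CXCL8 at chr4:73740443-73740521 (+) and IL6 at chr7:22727093-22727171 (+).
CXCL1: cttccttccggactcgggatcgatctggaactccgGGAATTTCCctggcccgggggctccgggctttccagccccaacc
CXCL2: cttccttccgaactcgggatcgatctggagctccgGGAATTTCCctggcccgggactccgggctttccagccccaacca
CXCL3: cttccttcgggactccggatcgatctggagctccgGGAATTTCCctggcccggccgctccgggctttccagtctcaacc
CXCL5: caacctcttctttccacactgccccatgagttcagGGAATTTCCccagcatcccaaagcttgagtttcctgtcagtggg
CXCL6: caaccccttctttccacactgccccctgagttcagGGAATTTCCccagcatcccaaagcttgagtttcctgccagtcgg
CXCL8: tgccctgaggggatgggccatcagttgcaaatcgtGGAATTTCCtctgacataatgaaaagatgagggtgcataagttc
IL6: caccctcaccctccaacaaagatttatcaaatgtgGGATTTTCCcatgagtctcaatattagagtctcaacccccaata

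The capitals begin 78 bases before the start in CXCL1 and CXCL3, 77 in CXCL2, 90 in CXCL5, 89 in CXCL6, 91 in CXCL8 and 72 in IL6. Aligned on the motif without gaps, the lines of CXCL5 and CXCL6 were 94.9% identical and those of CXCL1 and CXCL3 91.1%, whereas CXCL6 and CXCL8 shared 26.6%. Of the 82 genes 58 had a RefSeq promoter, 250 bases before to 50 bases after the start, and 11 of these (19%) held GGANTTTCC on either strand, against 2.01% of all 27305 promoters. The 11 are the 7 shown and CXCL10, CXCL11, IL13 and IL32. This spelling was kept after the matches of 9 motifs had been seen, 6 of them forms of the NF-kB site, so the share is a description and no evidence. The other 5 forms matched between 7 and 20 of the 58 promoters, the most for a loose 10-letter form that 29% of all promoters hold. GGGANTTTC overlaps the motif and was found in 10 (17.2%, against 1.56% of all), and GGAANTTCC in 9 (15.5%, against 1.16%). The AP-1 motif TGANTCA was in 15 (25.9%, against 9.37%), the C/EBP type motif TTNNGCAAT in 3 (5.17%, against 2.85%), and the E-box CACGTG, which MYC binds with MAX, in 2, CCL3 and IL17D (3.45%, against 8.77%). All motifs were searched on both strands. A match is not a site, and a missing match says nothing of a factor.

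Per the file header, a gene has no value where its read counts were 0. Of all 58317 genes 42605 had a value in at least 1 comparison, and of the 82 genes 66 did, so missing values are not particular to them. Of the 82 genes 47 had a value in all 7 comparisons, 19 in some and 16 in none. These 16 included 10 of the 24 CC chemokines, among them CCL3, CCL4, CCL17 and CCL22, which leukocytes make, and the T-cell interleukins IL2, IL3, IL17A and IL17F. TNF and IL10 had a value in WT against EV and in no mutant comparison of the authors' deposited table. In WT against EV 11 of the 54 values were folds whose size 20 or more genes shared exactly, against 15.2% of all genes with a value. CCL11, CCL21 and TNF all stood at -1.13 and CCL8 at 1.13 in the authors' deposited table, each with a PPDE of 0.

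The first comparison, WT against EV, is on the effect of MYC of full length. CCL5 rose, and CCL26, IL1B, IL6 and IL15 fell. These 5 were called among 54 genes with a value, beside 4.91% of all genes with a value. The 1 riser stands beside 1.97% of all genes that rose, and the 4 that fell beside 2.94%. By sign alone, 37 of the 54 were below 0 and 17 above, and the members' median in the authors' deposited table was -0.38 (log2), whereas the median of all genes was -0.04 and 46.9% of them were above 0.

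**Figure D1:**
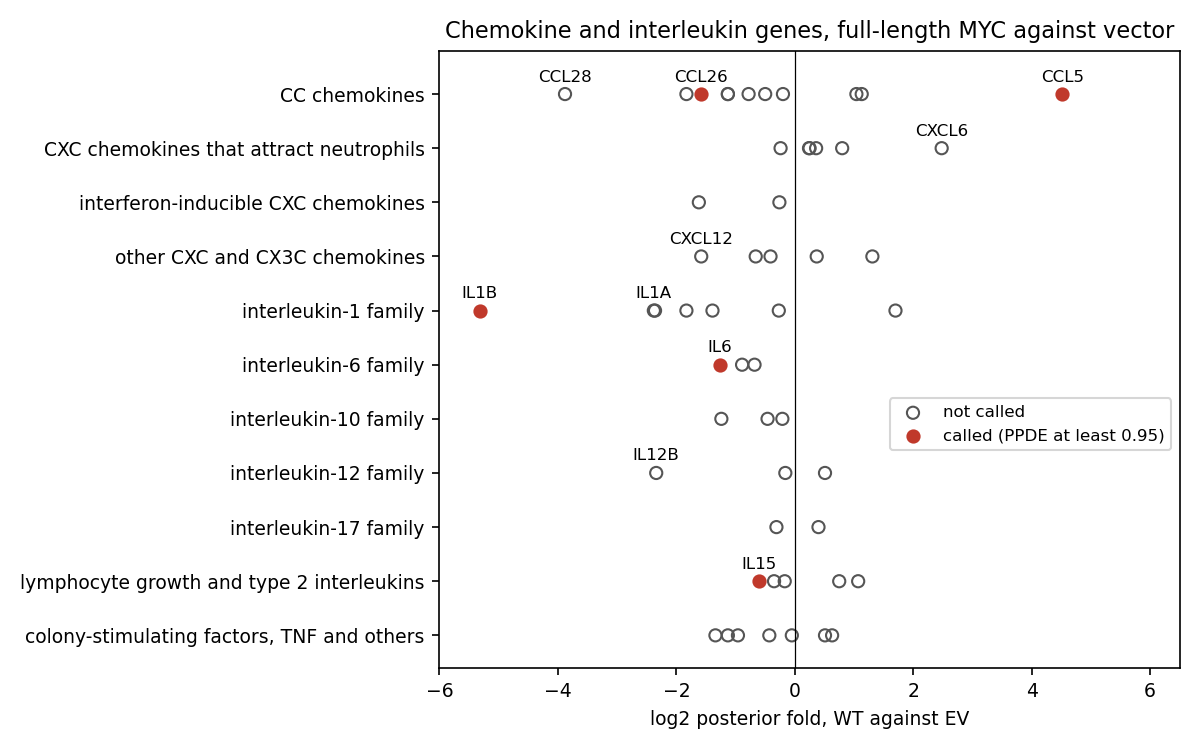
Log2 posterior fold of each chemokine and interleukin gene in WT against EV (x axis, no unit), 1 row per gene family; each circle is 1 gene of the authors' deposited table, filled red where its PPDE is at least 0.95. CCL5 stands alone on the right at 4.52, and IL1B on the left at -5.32.

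The CC chemokines held both a called rise and a called fall. CCL5, which draws T cells and monocytes, had a log2 fold of 4.52 with a PPDE of 0.999 in the authors' deposited table. CCL26, eotaxin-3, which draws eosinophils through CCR3, stood at -1.58 with a PPDE of 0.999 in the authors' deposited table. CCL28, a mucosal chemokine, had a deeper fold of -3.88 in the authors' deposited table but a PPDE of 0.893, so it was not called. The monocyte attractant CCL2 stood at -0.20 and CCL20, the ligand of CCR6, at -0.78 in the authors' deposited table, neither called. Of the 11 CC genes with a value, 8 were below 0 and 3 above, with a median of -0.78.

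Among the other chemokines none was called. CXCL12, the stromal ligand of CXCR4 and ACKR3, stood at -1.58 with a PPDE of 0.931 in the authors' deposited table, just under the threshold. CXCL6 stood at 2.48 with a PPDE of 0.894 in the same authors' deposited table. The interferon-inducible CXCL10 and CXCL11, ligands of CXCR3, were at -0.26 and -1.62 in the authors' deposited table. CX3CL1, the membrane-anchored fractalkine, stood at 1.31 with a PPDE of 0.0992 in the authors' deposited table.

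The interleukin-1 family had the deepest fall. IL1B, a main trigger of fever and inflammation that is cut by caspase-1 before release, stood at -5.32 with a PPDE of 0.9999 in the authors' deposited table. IL1A, its sister cytokine, was at -2.38 with a PPDE of 0.362 in the authors' deposited table, which is no call. IL33, an alarmin released from damaged cells, stood at -1.39 and IL18 at -0.27 in the authors' deposited table. Among 7 members 6 were below 0, with a median of -1.83, and IL36B alone was above, at 1.70 with a PPDE of 0 in the authors' deposited table. That median is the fold of IL36A, which also had a PPDE of 0. Its size was that of 86 genes, and the size of the IL36B fold that of 45 genes.

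The interleukin-6 family, most of which signals through gp130, held 3 genes with a value, and all 3 were below 0. IL6, which drives the acute-phase response, fell, at -1.27 with a PPDE of 1 in the authors' deposited table. LIF, which keeps mouse embryonic stem cells undifferentiated, stood at -0.89 with a PPDE of 0.818 in the authors' deposited table. IL11, a fibroblast-derived cytokine, was at -0.68 with a PPDE of 0.873 in the authors' deposited table. Neither LIF nor IL11 was called.

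IL15, which sustains NK cells and memory T cells, had the smallest called fold, -0.61 with a PPDE of 0.971 in the authors' deposited table. IL7, a growth factor of early lymphocytes, stood at -0.35 and was not called in the authors' deposited table. IL12A, the p35 subunit of interleukin-12, was at 0.51 with a PPDE of 0.774 in the authors' deposited table, while IL12B, its p40 partner, was at -2.34 with a PPDE of 0.337. CSF1, the growth factor of macrophages, stood at -0.43, uncalled in the authors' deposited table. The colony-stimulating factors, TNF, IL16, IL32 and IL34 gave 5 values below 0 and 2 above, none of them called.

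The call rule moved few of these genes. At a PPDE of at least 0.90, which 5.51% of all genes with a value reached, CXCL12 joined and 6 were called. At 0.99, reached by 3.97%, IL15 dropped out and 4 were called. With an absolute log2 fold of at least 1 asked for as well, which 1.59% of all genes passed, IL15 dropped out again and 4 were called.

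Against WT few of these genes were called in the mutants. In the authors' deposited table of all genes the only call among all 6 mutant comparisons was CXCL5 in d4. No member was called there in more than 1 of the 7 comparisons. The table of bound genes, described below, differs in both points. The shares of all genes called were small too: 0.559% in d0x, 0.119% in d1, 1.45% in d2, 0.0419% in d3a, 0.0955% in d3b and 1.11% in d4. For d4 the share of all genes that fell was 0.86%, beside 1 of 53 members with a value. At a PPDE of at least 0.5 stood 3 members in d0x, 5 in d2, 4 in d4 and 0 in d1, d3a and d3b. The share of all genes at 0.5 was not counted, so the difference between mutants cannot be read as one of these members. The highest PPDE was 0.117 in d1 (IL6), 0.36 in d3a (CXCL5) and 0.00569 in d3b (CXCL10) in the authors' deposited table. A PPDE below the threshold does not show that a gene kept its level.

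The genes that CXCR2 and CXCR1 read as a neutrophil signal (CXCL1, CXCL2, CXCL3, CXCL5, CXCL6 and CXCL8) gave the one mutant call of that table. CXCL5, an epithelial and stromal neutrophil attractant, fell in d4, at -0.73 with a PPDE of 0.986 in the authors' deposited table. The same gene stood at -0.54 in d0x (PPDE 0.853) and -0.60 in d3a (PPDE 0.36) in the authors' deposited table, neither called. Its folds were 0.12 in d1, -0.25 in d2 and 0.30 in d3b in the authors' deposited table, and 0.36 in WT against EV.

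CXCL8, the classical neutrophil attractant, stood at -1.32 in d0x, -0.94 in d3a and -1.37 in d4 in the authors' deposited table, beside 0.34 in d1, -0.15 in d2 and 0.29 in d3b. CXCL1, first described as a melanoma growth factor, was at -1.48 in d0x, -0.96 in d3a and -1.23 in d4 in the authors' deposited table, and at 0.42 in d1. In d0x, d3a and d4 the PPDEs of CXCL8 and CXCL1 were at most 0.0181. CXCL6 stood at -2.24 in d0x, with a PPDE of 0.439, and at -1.42 in d4, with a PPDE of 0.0415, in the authors' deposited table. By sign, 6 of 6 of these genes were below 0 in d0x, d3a and d4, 5 in d2, 4 in d3b and 1 in d1. Medians in the authors' deposited table were -1.03 in d0x, -0.77 in d3a and -0.98 in d4, whereas the medians of all genes lay between -0.07 and 0.06 in the 6 comparisons. These comparisons share their WT libraries, and CXCL5 in d4 was the only one of these values called.

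**Figure D2:**
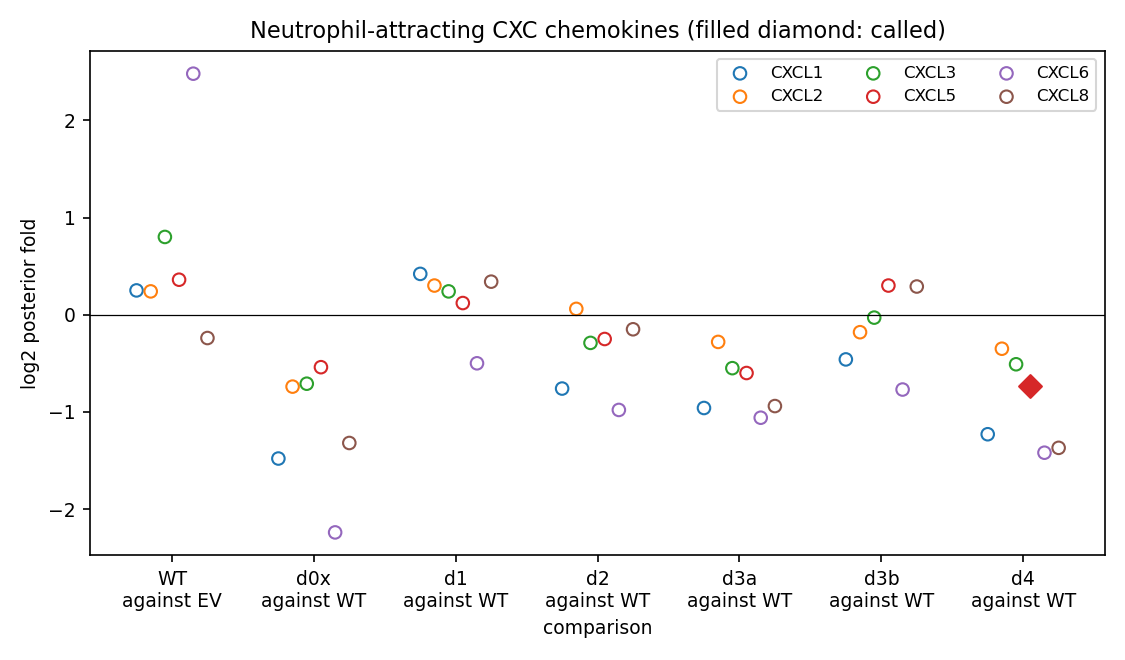
Log2 posterior folds (y axis, no unit) of the neutrophil-attracting CXC genes in the 7 comparisons (x axis); each circle is 1 gene of the authors' deposited table, spread sideways to show it, and the filled diamond is the called fold. In d0x, d3a and d4 all 6 genes lie below 0, and the diamond is CXCL5 in d4 at -0.73.

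CXCL1, CXCL2 and CXCL3 are close copies, so reads of one can be counted for another. In GENCODE 29 transcripts CXCL2 shared 8.99% of its 50-base stretches with CXCL3, and CXCL1 shared 4.81% of its own with CXCL2. CXCL5, CXCL6 and CXCL8 shared 0 with any of the others. How such reads were counted is not given in the sources used here.

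CCL5, the riser in WT, was below 0 in 5 of the 6 mutant comparisons. Its folds were -3.04 in d0x, -2.94 in d2 and -3.26 in d4 in the authors' deposited table, with PPDEs of 0.682, 0.64 and 0.784. It stood at -0.81 in d1, -1.04 in d3a and 0.62 in d3b in the authors' deposited table, with PPDEs of at most 0.00114. None was called. Added to the WT fold of 4.52, these folds put CCL5 at 1.26 to 5.14 relative to EV, above 0 in every mutant. Such a sum of 2 folds of the authors' deposited table has no PPDE of its own. CCL5 was named for its rise in WT, and every mutant was compared with the same WT libraries. A chance excess in those libraries would put all its mutant folds lower.

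The fallen genes of WT against EV were not called in any mutant in the authors' deposited table of all genes. In that of bound genes, described below, IL6 was called in d2. These genes were named for their fall in WT, and every mutant was compared with the same WT libraries. A chance low in those libraries would put all their mutant folds higher. IL6 stood at 1.03 in d2 (PPDE 0.614) and 1.13 in d4 (PPDE 0.508) in the authors' deposited table, and between -0.01 and 0.80 in the other 4 mutants. IL1B was at 1.29 in d2 (PPDE 0.852) and 1.80 in d4 (PPDE 0.041) in the authors' deposited table. Relative to EV, the sums left IL1B between -5.40 and -3.52 in all 6 mutants, while IL6 came to -0.25 in d2 and -0.14 in d4 by adding folds of the authors' deposited table. CCL26 had the highest PPDE in d2, 0.94, with a fold of 1.11 in the authors' deposited table, and stood at -0.69 in d4. IL15 was at 0.89 in d2 and -0.22 in d4 in the authors' deposited table. At a PPDE of at least 0.90, which 1.64% of all genes reached in d2, CCL26 alone was called there. In the authors' deposited table of bound genes the PPDE of CCL26 in d2 was 0.509. CXCL5 in d4 was not called at 0.99, reached by 0.867% of all genes, nor with an absolute log2 fold of at least 1, passed by 0.124%.

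**Figure D3:**
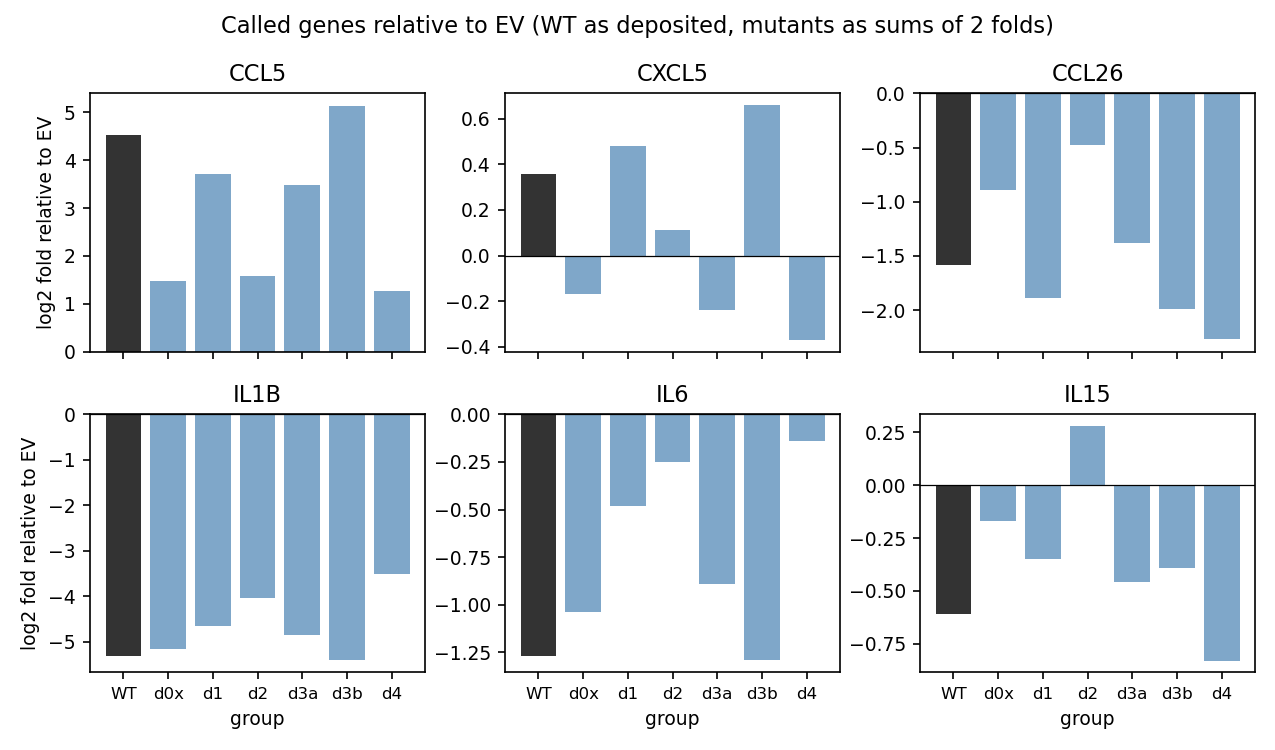
Log2 fold relative to EV (y axis, no unit, its range differs between panels) of the 6 called genes, with WT as deposited (black) and each mutant as the sum of its fold against WT and the WT fold (blue). CCL5 stays above 0 in all groups, from 1.26 in d4 to 5.14 in d3b, and IL1B stays at -3.52 or below.

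CXCL12, which missed the call in WT against EV, stood at 1.72 in d2 (PPDE 0.887), 1.45 in d3a (PPDE 0.0078) and 1.60 in d4 (PPDE 0.882) in the authors' deposited table. Its values in d0x, d1 and d3b were 0.48, -0.32 and 0.45 in the authors' deposited table. CXCL14, an epithelial chemokine, was at -0.66 in d0x with a PPDE of 0.696 in the authors' deposited table. CCL28 stood at 2.37 in d2 with a PPDE of 0.0891 in the authors' deposited table, and between -0.83 and -0.75 in the others. In those other mutants its PPDE was 0, and its fold had a size found in 548 to 670 genes of the same comparison. LIF and IL11 had folds between -0.13 and 0.46 in all 6 mutants in the authors' deposited table. None of these values was called.

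Further members follow by the naming rule, none of them called. In d1, IL19 of the interleukin-10 family stood at -2.47, IL12B at 1.79 and CXCL11 at 0.84 in the authors' deposited table. IL37, which dampens inflammation, was at 2.04 in d3a and 2.19 in d4 in the authors' deposited table. In d3b, CXCL10 stood at 1.31, the type 2 interleukin IL4 at -1.49, CXCL17 at -0.20 and IL16, a ligand of CD4, at 0.03 in the authors' deposited table. Their PPDEs were all at most 0.0531.

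By sign, members above and below 0 numbered 24 and 27 in d0x, 33 and 18 in d1, 30 and 22 in d2, 26 and 30 in d3a, 23 and 27 in d3b, and 23 and 30 in d4. Their medians in the authors' deposited table were -0.10, 0.16, 0.15, -0.01, -0.04 and -0.12 in that order. Without folds whose size 20 or more genes shared, 18 members were above 0 and 22 below in d0x, and 26 and 14 in d1. In d2 these were 22 and 18, in d3a 16 and 25, in d3b 18 and 22, and in d4 16 and 25. The medians were then -0.13, 0.15, 0.10, -0.09, -0.04 and -0.22 in the same order. Of all genes with a value, 49.6% were above 0 in d0x, 41.6% in d1, 52.8% in d2, 47.2% in d3a, 57.8% in d3b and 45.2% in d4. In d1 and d3b the members' median and that of all genes differed in sign: 0.16 beside -0.07 in d1, and -0.04 beside 0.06 in d3b. No member was called in either.

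**Figure D4:**
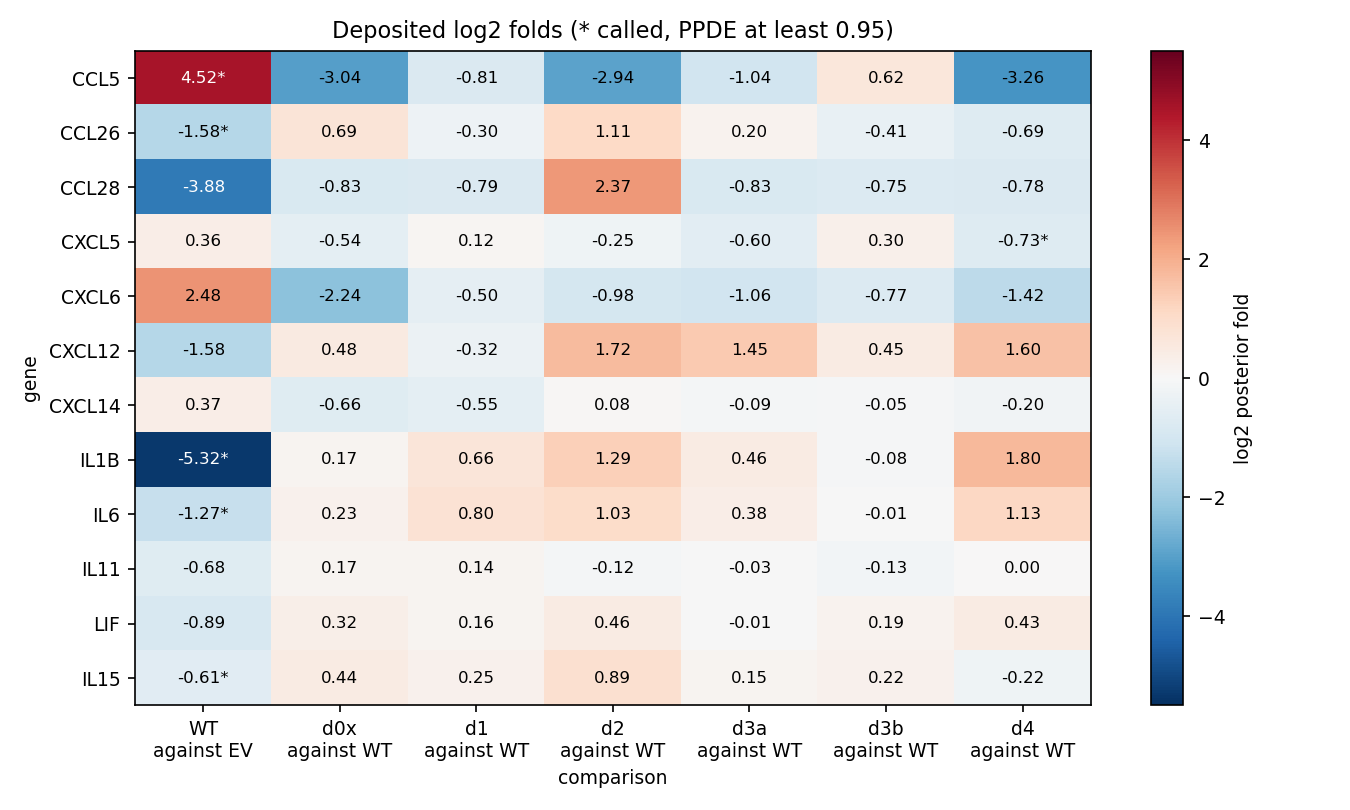
Log2 posterior folds (colour and printed values, no unit) of 12 named genes (rows) in the 7 comparisons (columns) of the authors' deposited table, red above 0 and blue below; a star marks a PPDE of at least 0.95. Stars stand on CCL5, CCL26, IL1B, IL6 and IL15 in the first column and on CXCL5 in the last.

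The receptors of these ligands that were called in WT against EV all fell, beside the 2.94% of all genes that fell. Of 18 chemokine receptors with a value 1 fell: ACKR3, the scavenging receptor of CXCL12, at -1.22 in the authors' deposited table. ACKR3 rose in 3 mutants, at 0.73 in d0x, 1.22 in d2 and 0.65 in d4 in the authors' deposited table. Of 38 interleukin and colony-stimulating factor receptors 5 fell and 0 rose in WT against EV. They were IL1R1 at -0.97 and its partner IL1RAP at -0.84, OSMR at -0.62, IL10RB at -0.52 and IL11RA at -0.42 in the authors' deposited table. In d2, IL10RB rose at 0.50 and IL6R fell at -0.48 in the authors' deposited table. Of all genes 0.559% were called in d0x, 1.45% in d2 and 1.11% in d4. These comparisons share the WT libraries of WT against EV, so a rise here is not independent of a fall there.

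The genes that make or limit cytokine mRNA were mostly not called. Of 25 NF-kB pathway genes 1 fell in WT against EV, a share near the 2.94% of all genes that fell: RIPK1, a kinase below the TNF receptor, at -0.61 in the authors' deposited table, and it rose in d0x at 0.34 and in d2 at 0.40. Among 13 cytokine transcription factors STAT2, of the interferon pathway, fell at -0.87 in the authors' deposited table. Beside the same 2.94%, of 9 mRNA decay regulators 2 fell, ZFP36 at -0.90 and ZFP36L1 at -0.81 in the authors' deposited table. Both rose in d2, at 0.95 and 1.06, and ZFP36 rose in d3a, at 0.67, in the authors' deposited table. Of all genes 0.559% were called in d0x, 1.45% in d2 and 0.0419% in d3a.

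Of 13 genes of cytokine processing and antagonism 3 fell in WT against EV and 0 rose, beside 2.94% of all genes that fell and 1.97% that rose. NLRP3, the inflammasome sensor, stood at -2.04 and CASP1, the protease that cuts pro-IL1B, at -1.42 in the authors' deposited table. DUSP1, a phosphatase of stress kinases, was at -0.87 and rose in d2 at 0.91 in the authors' deposited table. Of 20 other cytokine ligands 2 fell, beside the same 2.94%: TNFSF10 (TRAIL) at -2.69 and TGFB2 at -1.58 in the authors' deposited table. Of all genes 1.45% were called in d2. No gene of these lists was called in d1 or d3b, where only 0.119% and 0.0955% of all genes were called, so this zero says little.

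MYC binding was mapped by ChIP-seq of WT in 1 experiment, and 14 of the 82 genes (17.1%) are in the authors' deposited table of bound genes, against 16.1% of all genes. Over genes with a value in WT against EV the shares were 25.9% and 24%. The bound members are CCL26, CCL28, CSF1, CXCL5, CXCL8, IL1A, IL6, IL7, IL12A, IL16, IL17D, IL23A, IL32 and LIF. CCL5, IL1B and IL15 are not among them. How sites were assigned to genes is not given in the sources used here.

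That table gives bound genes folds and PPDEs that differ from those of the first, with 15.8% of its genes called in WT against EV, 4.87% in d2 and 2.64% in d4. CCL26 at -1.50 and IL6 at -1.23 fell there too, and IL12A rose at 0.55 with a PPDE of 0.985, in the authors' deposited table of bound genes. IL6 also rose in d2, at 0.97, in the authors' deposited table of bound genes, where the first table gave 1.03 with a PPDE of 0.614. CXCL5 in d4 had nearly the same fold, -0.66, but a PPDE of 0.471 in the authors' deposited table of bound genes and was not called. The calls of IL12A, IL6 in d2 and CXCL5 in d4 therefore differ between the 2 tables. Uncalled PPDEs differed too. CCL26 in d2 had 0.94 in the first table and 0.509 in that of bound genes, and IL6 in d4 had 0.508 and 0.944.

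**Figure D5:**
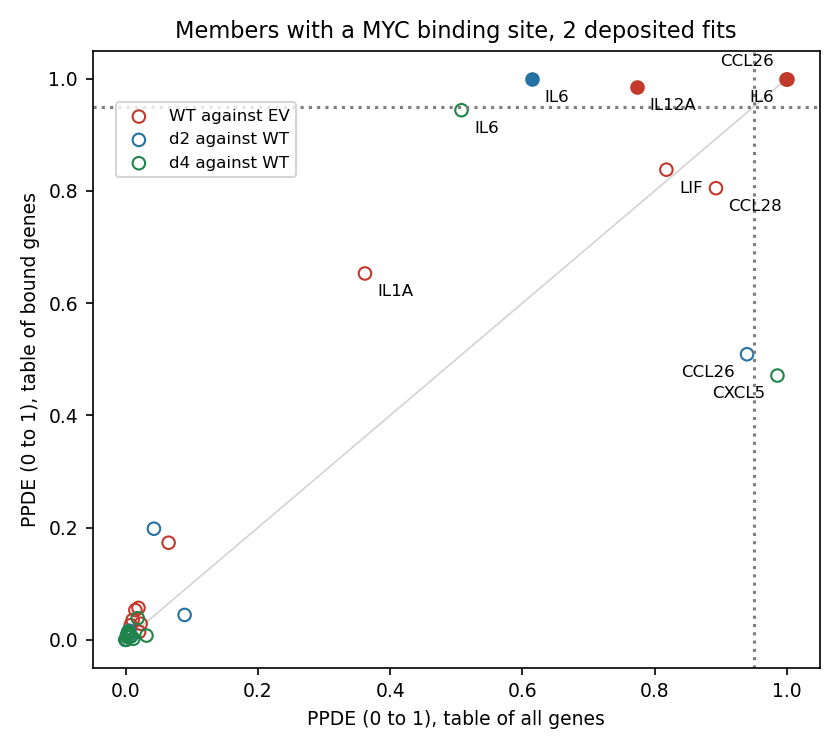
PPDE (0 to 1) of the bound members in the authors' deposited table of all genes (x axis) and in that of bound genes (y axis), in WT against EV (red), d2 (blue) and d4 (green) against WT; filled circles are called in the table of bound genes, and dotted lines mark 0.95. IL6 in d2 lies high on the y axis but at 0.614 on the x axis, and CXCL5 in d4 lies the other way, at 0.986 on the x axis and 0.471 on the y axis.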

How the data were processed

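Per the file headers, the authors' deposited tables hold a log2 posterior fold and a PPDE, a probability score from 0 to 1, for WT against EV and for each mutant against WT. A gene has none where read counts were 0. Named in the submitters' processing notes are DESeq, the aligner STAR 2.5.2a, R 3.3.1 with edgeR 3.16.5, and the build GRCh37. Which program gave the posterior values, and how libraries were scaled, is not given in the sources used here. With no values per library, no test was run here and calls are the authors' own (PPDE at least 0.95). The table of bound genes holds 9368 genes. The genes, families and lists were chosen with earlier results of these data known. Named are genes called in any comparison, up to 5 more per comparison by highest PPDE, and at most 6 called genes per related list; others in the text illustrate a family and were chosen after their values were seen. Counting was tested on simulated tables. Alternative settings were thresholds of 0.90 and 0.99, calls with an absolute log2 fold of 1 or more, folds centred on the median gene, genes with a value in all 7 comparisons, and the table of bound genes. Spellings of the NF-kB motif were added after seeing the data. Python 3.11.15 and pandas 2.3.3 were used.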

Additional observations from a re-analysis of the deposited data

How the results depend on the processing

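In WT against EV the count of called chemokine and interleukin genes was 5, and 3 in the authors' deposited table of bound genes, which holds fewer of them. In d2 it was 0, and 1 at a PPDE of 0.90 (CCL26) and in the table of bound genes (IL6). In d4 it was 1 (CXCL5), and 0 at a PPDE of 0.99, with an absolute log2 fold of at least 1, or in the table of bound genes. Of 136 single alternative values, 128 kept their direction and their side of the threshold. Most could hardly do otherwise: the thresholds of 0.90 and 0.99 leave each fold as it was, and centring leaves each PPDE. Only the table of bound genes could change both. There 10 values kept both, 1 turned its sign, 1 became called and 1 lost its call. The sign turned for IL16 in d3b, which was not called: -0.03 with folds centred on the median gene and -0.12 in the table of bound genes. The cause was not tested. No paired analysis was possible because the values are the authors' comparisons of whole groups, and leaving out replicates was not run for the same reason. Depth is unknown.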

Other observations

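Other platelet-type CXC genes of the chromosome 4 cluster fall outside the symbol rule. PF4V1 stood at -0.78 in d0x, -0.38 in d3a and -0.75 in d4 in the authors' deposited table, and PPBP, which also attracts neutrophils, at -1.77, -0.20 and 0.43. PF4, platelet factor 4, was at 0.82, 1.52 and 0.79 in the same comparisons of the authors' deposited table. None of the 3 was called in any comparison, and they were chosen after the values of their neighbours had been seen.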
